A study of Homo sapiens with 30 samples.

Results

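The clustered protocadherins are 3 neighbouring arrays of genes on human chromosome 5. The genes described here are the protein-coding genes of that chromosome whose symbol is PCDHA, PCDHB or PCDHG followed by a number, or by a letter and a number. This rule found 53 of the 20037 protein-coding genes of the RefSeq table used: 15 in PCDHA, 16 in PCDHB and 22 in PCDHG. All peaks that overlapped the span from the first to the last gene of an array were taken. After the peaks of all lists were merged where they shared at least 1 bp, the spans held 68 of 493444 open regions.

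Clustered protocadherins are cadherin-like adhesion proteins of the neuronal surface, and the mixture made by a neuron lets its neurites recognise and avoid each other. Each alpha and gamma variable exon has its own promoter and is spliced to constant exons shared by its cluster, while beta genes stand alone. In the nervous system the alternate promoters are chosen one by one in single cells, with CTCF, cohesin, distant enhancers and DNA methylation involved, whereas C-type genes (PCDHAC and PCDHGC) are used more evenly.

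The assay was OmniATAC-seq, which reads accessible DNA from where the Tn5 transposase can insert adapters. The cells were wild-type H1, a human embryonic stem cell line, with 30 libraries of 50000 cells in 10 populations of 3 replicates. The deposited files were 10 lists of peak positions, 1 per population and without scores. No value below therefore has a replicate error, no test was made, and read depth is unknown.

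Undifferentiated cells (hPSC) were taken on day 0 in their own medium. Definitive ectoderm (DE) was taken on day 1 after A8301 at 1 µM, Trametinib at 250 nM, C59 at 1 µM and LDN193189 at 100 nM. Anterior neural ectoderm (aNE) was made from DE and taken on day 2 after A8301 at 1 µM, LDN193189 at 100 nM, C59 at 1 µM and Thiazovivin at 1 µM. Posterior neural ectoderm (pNE) was also made from DE and taken on day 2, and in place of C59 it received TTNPB at 50 nM, FGF2 at 20 ng/mL and XAV939 at 1 µM. Both day 2 populations were then kept to day 4 in telencephalon (T), midbrain (M) or hindbrain (H) medium, which gave aNE_T, aNE_M, aNE_H, pNE_T, pNE_M and pNE_H. The forebrain medium of day 3, listed for aNE_T and pNE_T only, held XAV939 at 1 µM, LDN193189 at 100 nM and FGF2 at 20 ng/mL. The make-up of the M and H media is not given in the sources used here. Cells harvested on day 2 were plated at 37500 per square cm. Those kept to day 4 were plated at 75000 in the anterior protocol and 150000 in the posterior protocol, so plating density and origin cannot be told apart on day 4. All populations are 1 cell line, and all but hPSC share the DE step.

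The 6 promoters printed here let neighbours with and without peaks be read side by side. They are the first adjacent pair of each cluster, in genomic order, in which both genes have a promoter sequence in the RefSeq table and one promoter had a peak in all 10 lists and the next had none. PCDHA2 and PCDHA3 come earlier and show the same contrast, but PCDHA3 has no sequence there. Each sequence is the 150 bases before the RefSeq start on the plus strand (GRCh38.p14), and the capitals mark the motif that the pair shares. The motifs are GATGTCGCT in PCDHA, GTGGCGCTG in PCDHB and GCCGCTGT in PCDHG, and each contains CGCT, the core of the conserved element known from protocadherin promoters.
PCDHA4 (all lists, chr5:140806918-140807067): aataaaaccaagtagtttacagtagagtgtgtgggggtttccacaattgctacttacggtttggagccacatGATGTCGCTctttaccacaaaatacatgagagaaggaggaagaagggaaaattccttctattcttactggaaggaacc
PCDHA5 (no list, chr5:140821463-140821612): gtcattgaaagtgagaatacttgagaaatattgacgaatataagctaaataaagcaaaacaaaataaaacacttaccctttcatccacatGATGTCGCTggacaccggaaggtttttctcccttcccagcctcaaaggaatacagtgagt
PCDHB2 (all lists, chr5:141094465-141094614): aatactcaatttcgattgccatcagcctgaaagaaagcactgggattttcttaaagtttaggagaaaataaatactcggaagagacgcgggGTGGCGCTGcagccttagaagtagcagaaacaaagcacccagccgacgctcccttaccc
PCDHB3 (no list, chr5:141100323-141100472): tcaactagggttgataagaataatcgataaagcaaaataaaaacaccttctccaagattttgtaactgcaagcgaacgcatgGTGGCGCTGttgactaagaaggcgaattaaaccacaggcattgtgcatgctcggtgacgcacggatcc
PCDHGB4 (all lists, chr5:141387548-141387697): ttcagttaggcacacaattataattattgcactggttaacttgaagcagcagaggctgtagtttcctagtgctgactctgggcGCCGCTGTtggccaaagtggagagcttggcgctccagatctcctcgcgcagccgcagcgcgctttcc
PCDHGA8 (no list, chr5:141392483-141392632): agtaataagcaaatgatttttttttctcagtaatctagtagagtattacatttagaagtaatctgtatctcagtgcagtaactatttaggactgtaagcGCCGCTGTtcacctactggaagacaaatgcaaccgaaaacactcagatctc

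The motif began 78 bases before the start in PCDHA4 and 60 in PCDHA5, 59 in PCDHB2 and 68 in PCDHB3, and 67 in PCDHGB4 and 51 in PCDHGA8. Since the capitals mark a string that the pair shares, its presence both with and without a peak followed from that choice. RefSeq promoter windows, which run from 250 bases before to 50 after a start, were available for 47 of the 53 members. The motif GATGTCGCT, on either strand, was found in 9 of the 11 alpha genes with a window and in none of the other members, against 0.126% of the 22199 windows of protein-coding genes. GTGGCGCTG was found in 12 of 14 beta genes, against 0.694% of all windows. GCCGCTGT was found in 5 of 11 gamma A, 4 of 7 gamma B and 2 of 4 C-type genes, against 1.87% of all windows. The core CGCT, which lies inside all 3 longer strings, was found in 46 of 47 members, PCDHA9 being the exception, and in 79.7% of all windows. These strings were read from the members' own windows after other strings had been searched, so their shares describe the family and were not tested.

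Base composition differed between the classes of promoter. The median GC content was 46.5% in the 14 members with a peak in all lists, 41.5% in the 18 with a window and a peak in 1 to 9 lists, and 36.0% in the 15 with a window and no peak. The ranges overlapped, from 34.3% to 66.0%, 36.3% to 51.3% and 32.3% to 43.0%. Subtypes were spread unevenly over these groups. The 4 C-type promoters with a window all lay among the 14 and had a median of 61.8%. The medians of the other subtypes were 48.3% in gamma B, 40.8% in beta, 38.3% in gamma A and 36.0% in alpha. The part of subtype in the difference was not tested. All 15843 protein-coding genes with a window had a median of 62.7%, above every class of protocadherin. Peaks depend on mapped reads, and near-identical stretches can lose them: a run of 30 bases was shared between PCDHB8 and PCDHB13, between PCDHGB4 and PCDHGB5, and between PCDHGB6 and PCDHGB7. How reads that map to several places were treated is not given in the sources used here.

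The first question was how much of the 3 arrays lay in open chromatin in each population. The PCDHA span ran from PCDHA1 to PCDHAC2 (chr5:140786140-141012347), the PCDHB span from PCDHB1 to PCDHB15 (chr5:141051374-141249365) and the PCDHG span from PCDHGA1 to PCDHGC5 (chr5:141330514-141512975). Together they measured 606662 bp. Peaks and open regions were most numerous in hPSC and DE and fewer in every neural list.

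The hPSC list had 61 peaks in the spans, covering 27782 bp and lying in 58 open regions. DE had 55 peaks over 25893 bp in 51 regions. On day 2, aNE had 25 peaks over 18121 bp in 24 regions, and pNE had 34 peaks over 20178 bp in 33 regions. Both neural ectoderm lists therefore held fewer regions than DE, and aNE held the fewest of all 10. On day 4 the lists from aNE had 31 peaks over 19621 bp in 29 regions (aNE_T), 26 peaks over 18132 bp in 25 regions (aNE_M) and 28 peaks over 17173 bp in 26 regions (aNE_H). Those from pNE had 28 peaks over 16815 bp in 25 regions (pNE_T), 29 peaks over 16888 bp in 26 regions (pNE_M) and 41 peaks over 21063 bp in 37 regions (pNE_H). Of the day 4 lists only pNE_H stood above both day 2 lists in peaks, bases and regions.

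List length moved with some of these values. On the main chromosomes (1 to 22, X and Y) aNE was the shortest list with 167792 peaks, pNE_H the longest with 313095, and hPSC had 213572. Per 100000 peaks of its list, hPSC had 28.6 peaks in the spans, DE 22.2, pNE 16.4, aNE 14.9 and pNE_H 13.1. The hPSC density was thus the highest although 5 lists were longer, and the high count in pNE_H went with the longest list. The spans were covered to 4.58% in hPSC, which was 1.88 times the 2.44% of all chromosome 5, and to 3.47% in pNE_H, which was 0.823 times the 4.22% of chromosome 5. With each list cut to its widest 167792 peaks, hPSC still had 25636 bp covered and DE 23776 bp, and the other 8 lists had between 16079 bp in pNE_M and 19474 bp in pNE.

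**Figure D1:**
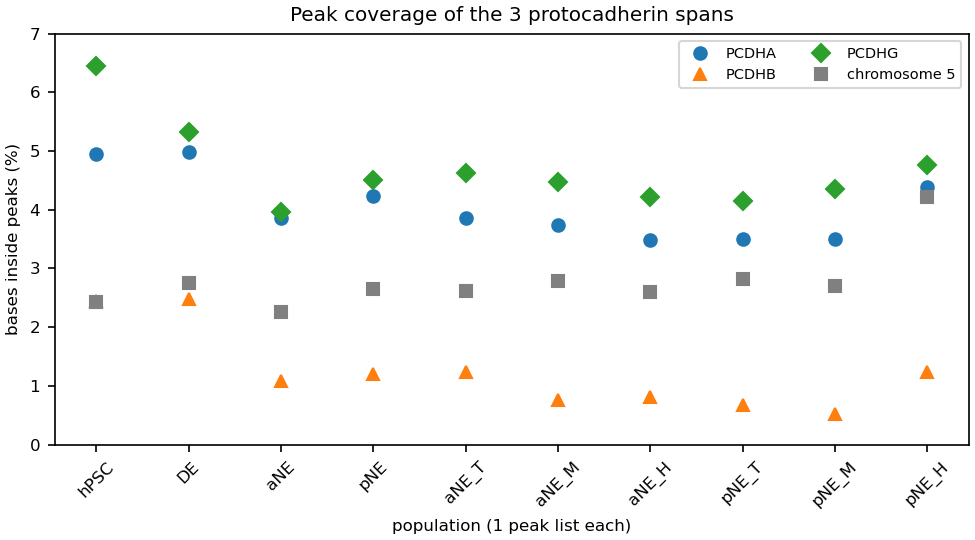
Share of bases inside peaks (y axis, %) in the PCDHA, PCDHB and PCDHG spans and in all of chromosome 5, for each of the 10 peak lists (x axis); each point is 1 list. PCDHG and PCDHA lie above the chromosome in all lists, and PCDHB goes from near the chromosome's value in hPSC (2.44%) to between 0.517% and 1.24% in the neural lists.

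The 3 clusters differed in how far their neural lists lay below hPSC. PCDHB, whose genes are intronless and have no shared constant exons, was covered to 2.44% in hPSC and 2.48% in DE, and to 1.09% in aNE and 1.19% in pNE. Its lowest value was 0.517% in pNE_M, where only 4 peaks remained. PCDHA was covered to 4.95% in hPSC and 4.98% in DE, and to between 3.49% in aNE_H and 4.39% in pNE_H in the neural lists. PCDHG was covered to 6.45% in hPSC, 5.32% in DE and between 3.97% in aNE and 4.76% in pNE_H in the neural lists. In peaks, PCDHG went from 27 in hPSC to 10 in aNE, PCDHB from 17 to 6 and PCDHA from 17 to 9.

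The second question was which of the alternate promoters were open. A promoter counted as open in a list where a peak shared at least 1 bp with its window. The 6 members without a window were PCDHA3, PCDHA13, PCDHB6, PCDHB11, PCDHGA12 and PCDHGC5. For these the same window was set at the gene's lower coordinate, since all other members lie on the plus strand. Of the 6, PCDHB11 alone had a peak over the window set for it. The shares of all promoters given below come only from the 15843 protein-coding genes with a RefSeq window. Accessibility of a promoter is not expression, and a list pools many cells, so a promoter open in few cells and one open weakly in many cannot be told apart.

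Of the 53 promoters, 32 (60.4%) were open in hPSC, against 78.8% of all protein-coding promoters. In DE 27 (50.9%) were open, against 78.4%. In aNE 16 (30.2%) were open, against 76.9%, and in pNE 21 (39.6%), against 77.8%. The members thus lost a large share of their open promoters between DE and neural ectoderm, while the share of all promoters moved by less than 2 percentage points. On day 4, aNE_T had 18 open (34.0%, against 77.9% of all), aNE_M 16 (30.2%, against 78%) and aNE_H 15 (28.3%, against 77.6%). The pNE-derived lists had 15 in pNE_T (28.3%, against 77.4%), 16 in pNE_M (30.2%, against 77.1%) and 22 in pNE_H (41.5%, against 79.6%). In every list the members' share lay below the share of all promoters. Among the widest 167792 peaks of each list the numbers were 26 in hPSC, 24 in DE, 18 in pNE and aNE_T, 16 in aNE, 15 in aNE_M and pNE_T, 14 in aNE_H and pNE_H, and 13 in pNE_M, while the share of all promoters lay between 76.3% in pNE_M and 78.0% in hPSC. The surplus of pNE_H was then gone.

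**Figure D2:**
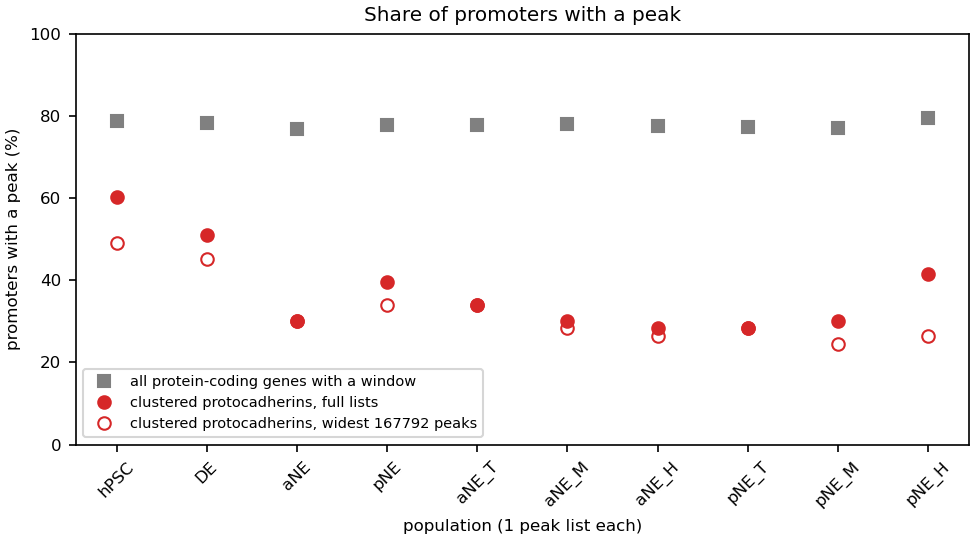
Share of promoters with a peak (y axis, %) in each of the 10 peak lists (x axis), for the 53 clustered protocadherins in the full lists (filled circles) and in lists of equal length (open circles), and for 15843 protein-coding genes (grey squares). The grey squares stay between 76.9% and 79.6%, while the protocadherins go from 60.4% in hPSC to 30.2% in aNE.

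Promoters fell into 3 classes. In 14 members (26.4%) a peak lay over the promoter in all 10 lists, against 73.7% of all protein-coding genes. In 20 members (37.7%) there was none in any list, against 16.5%. The other 19 were open in 1 to 9 lists. The shares of all protein-coding genes cover only genes with a RefSeq window. Among the 47 members with such a window, 14 were open in all lists, 18 in 1 to 9 lists and 15 in none. Of the 19 partly open members, 18 were open in hPSC (94.7%, against 52.3% of the 1558 protein-coding promoters open in 1 to 9 lists). All 19 were open in hPSC or DE (against 66.8%), so no clustered protocadherin promoter was open in a neural list without being open in hPSC or DE. In no day 4 list were 9 of the 19 open (47.4%, against 18.7%). This count depends on the window edge. The regions over PCDHA9 and PCDHB8, which are among the 9, held day 4 peaks outside the window (345 bp in pNE_H and 124 bp in aNE_T).

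The share of open promoters differed between subtypes, each of which was spread over more than 1 class. The 5 C-type promoters were open in 40 of 50 gene and list pairs (80.0%) and the 7 gamma B promoters in 46 of 70 (65.7%). The closed C-type pairs were all those of PCDHGC5, which had no RefSeq window. The 16 beta promoters were open in 65 of 160 pairs (40.6%), the 13 alternate alpha promoters in 35 of 130 (26.9%) and the 12 gamma A promoters in 12 of 120 (10.0%). Of all protein-coding promoters, between 76.9% (aNE) and 79.6% (pNE_H) were open in single lists. The C-type share was thus near that of all promoters, and the shares of the other subtypes were below it. The pairs of a gene come from related lists and are not replicates. No gamma A promoter was open in all lists, and no gamma B promoter was closed in all lists. Gamma A and gamma B genes alternate along the same array, so the contrast lay between neighbours.

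**Figure D3:**
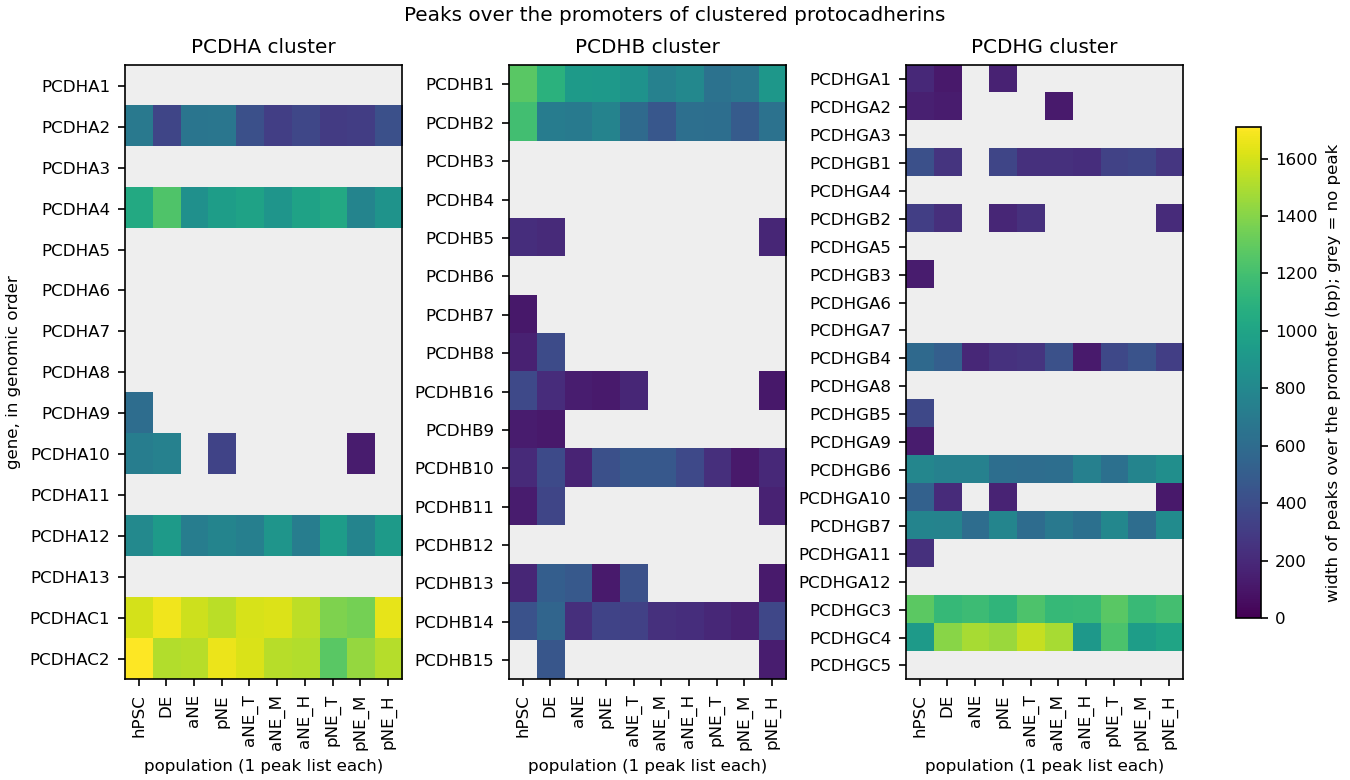
Width of the peaks over each promoter (colour, bp; grey where there is no peak) for the 53 genes in genomic order (rows) and the 10 peak lists (columns), 1 panel per cluster. Rows coloured throughout are the 14 promoters open in all lists, the widest being PCDHAC1 and PCDHAC2, and most other coloured cells stand in the hPSC and DE columns.

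C-type genes lie at the downstream end of the alpha and gamma arrays. The peak over PCDHAC1 was between 1352 bp (pNE_M) and 1672 bp (DE) wide, with a median of 1590 bp over the 10 lists. That over PCDHAC2, the last gene of PCDHA, was between 1273 bp (pNE_T) and 1711 bp (hPSC), with a median of 1522 bp. These were the widest promoter peaks of the family and varied little between lists. PCDHGC3 had between 1119 bp (pNE) and 1279 bp (hPSC), with a median of 1164 bp. PCDHGC4 had between 911 bp (aNE_H) and 1563 bp (aNE_T), with a median of 1318 bp. PCDHGC5, the last gene of PCDHG, had no peak over its promoter in any list. It had no RefSeq window, so its difference from the other C-type genes rests on the window set at its lower coordinate.

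Of the alternate alpha promoters 3 were open in all lists. PCDHA2 had a peak of between 298 bp (pNE_T) and 694 bp (hPSC), PCDHA4 of between 772 bp (pNE_M) and 1240 bp (DE), and PCDHA12 of between 727 bp (aNE_H) and 947 bp (pNE_T). No promoter peak was found in any list at PCDHA1, the first gene of the array, or at PCDHA3, PCDHA5, PCDHA6, PCDHA7, PCDHA8, PCDHA11 and PCDHA13. PCDHA10 was open in hPSC (724 bp), DE (751 bp), pNE (347 bp) and pNE_M (128 bp). PCDHA9 was open in hPSC alone (614 bp), but the same region held peaks in DE (326 bp), aNE (183 bp), pNE (125 bp) and pNE_H (345 bp) that lay outside the window. PCDHA7, PCDHA8, PCDHA11 and PCDHA13 likewise had a region within 1 kb downstream of the start, open in hPSC or DE and in no other list. Widening the window to 1000 bases on either side of the start moved no count of open promoters by more than 1.5 times. With the wider window 37 promoters were open in hPSC, against 32 before, and 16 were open in no list, against 20 before.

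In the beta array the first gene, PCDHB1, had a peak in all lists, between 646 bp (pNE_T) and 1276 bp (hPSC) wide. PCDHB2 had between 465 bp (aNE_M) and 1194 bp (hPSC), PCDHB10 between 120 bp (pNE_M) and 472 bp (aNE_T), and PCDHB14 between 155 bp (pNE_M) and 559 bp (DE). The peaks over PCDHB10 and PCDHB14 were narrow, and neither promoter was open in all lists once these were cut to equal length. The 8 beta promoters open in part of the lists were PCDHB5, PCDHB7, PCDHB8, PCDHB9, PCDHB11, PCDHB13, PCDHB15 and PCDHB16. PCDHB7 was open in hPSC alone (113 bp), which is the width of the narrowest peak of that list. PCDHB8 was open in hPSC (160 bp) and DE (388 bp), with a peak of 124 bp in aNE_T that did not reach the window. PCDHB9 was open in hPSC (133 bp) and DE (117 bp). PCDHB13 and PCDHB16 were the only 2 partly open promoters present in aNE, and both were also open in hPSC, DE, pNE, aNE_T and pNE_H. PCDHB5 and PCDHB11 were open in hPSC, DE and pNE_H. PCDHB15, the last gene, was open in DE (459 bp) and pNE_H (136 bp), with a peak of 127 bp in hPSC that did not reach the window. PCDHB3, PCDHB4, PCDHB6 and PCDHB12 had no peak over the promoter.

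Among gamma B genes, PCDHGB4, PCDHGB6 and PCDHGB7 were open in all lists. PCDHGB6 had between 609 bp (aNE_T) and 845 bp (pNE_H), PCDHGB7 between 607 bp (aNE_T) and 827 bp (pNE_H), and PCDHGB4 between 126 bp (aNE_H) and 582 bp (hPSC). PCDHGB6 and PCDHGB7 were open in all lists of equal length too, and PCDHGB4 was not. PCDHGB1 was open in 9 lists, with between 221 bp (aNE_H) and 420 bp (hPSC), and was absent from aNE. PCDHGB2 was open in hPSC (315 bp), DE (231 bp), pNE (187 bp), aNE_T (238 bp) and pNE_H (208 bp). PCDHGB3 (129 bp) and PCDHGB5 (371 bp) were open in hPSC alone.

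Gamma A promoters were rarely open. PCDHGA1, the first gene of the array, was open in hPSC (196 bp), DE (119 bp) and pNE (167 bp). PCDHGA2 was open in hPSC (151 bp), DE (128 bp) and aNE_M (122 bp), and PCDHGA10 in hPSC (532 bp), DE (211 bp), pNE (170 bp) and pNE_H (114 bp). PCDHGA9 (127 bp) and PCDHGA11 (235 bp) were open in hPSC alone. PCDHGA3, PCDHGA4, PCDHGA5, PCDHGA6, PCDHGA7, PCDHGA8 and PCDHGA12 had no peak over the promoter in any list. In hPSC the promoters open in all lists had a median peak width of 870.5 bp, and the 18 others open there had 208.5 bp. The widths overlapped, since PCDHA10 (724 bp) and PCDHA9 (614 bp) were partly open and PCDHB10 (203 bp) was open in all lists. The part of peak width in their absence from other lists was not tested.

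The central comparison of the design set aNE against pNE. At promoters every difference went one way: PCDHA10, PCDHGA1, PCDHGB1, PCDHGB2 and PCDHGA10 had a peak in pNE and none in aNE, which were 5 of the 21 open in pNE (23.8%, against 2.24% of all promoters open in pNE). No member had the reverse (against 1.08%). At regions, 9 of the 33 open in pNE were absent from aNE (27.3%, against 32.5% of all regions open in pNE), and 0 of the 24 open in aNE were absent from pNE (against 17.3%). The pNE list is longer, by 206811 peaks to 167792. With pNE cut to its widest 167792 peaks, 3 regions of the spans were found in aNE alone of the pair and 6 in pNE alone, and pNE had 18 open promoters to 16 in aNE. List length moved with this one-sided pattern, and its part in the pattern was not tested.

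Along the differentiation the spans lost regions and gained few. From hPSC to DE, 14 of 58 regions were lost (24.1%, against 21.8% of all regions), and 7 of the 51 regions of DE were gained (13.7%, against 32.3%). From DE to aNE, 27 of 51 were lost (52.9%, against 39.1%) and 0 of 24 gained (against 10.6%). From DE to pNE, 19 of 51 were lost (37.3%, against 37.6%) and 1 of 33 gained (3.03%, against 25.3%). The loss toward pNE was thus at the genome-wide share, and the loss toward aNE was above it. In lists of equal length the loss from DE to aNE was 15 of 39 regions (38.5%, against 23.9% of all), and that from DE to pNE 12 of 39 (30.8%, against 31.3%). At promoters, 11 of the 27 members open in DE were not open in aNE (40.7%, against 3.13% of all promoters open in DE), and 6 of 27 were not open in pNE (22.2%, against 2.63%). None of the 16 open in aNE (against 1.29%) and none of the 21 open in pNE (against 1.95%) lacked a peak in DE.

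From aNE to day 4, 1 of 24 regions was lost in aNE_T (4.17%, against 15.3%), 3 in aNE_M (12.5%, against 18.4%) and 3 in aNE_H (12.5%, against 24.8%). In the other direction 6 of 29 regions were gained in aNE_T (20.7%, against 28.8%), 4 of 25 in aNE_M (16.0%, against 37.4%) and 5 of 26 in aNE_H (19.2%, against 38.2%). From pNE, 10 of 33 were lost in pNE_T (30.3%, against 29.5%), 8 in pNE_M (24.2%, against 28.1%) and 3 in pNE_H (9.09%, against 14.1%). Gains from pNE were 2 of 25 in pNE_T (8.0%, against 33.3%), 1 of 26 in pNE_M (3.85%, against 31.4%) and 7 of 37 in pNE_H (18.9%, against 44.8%). In all 6 day 4 populations the share of regions gained was below the genome-wide share. The promoter gained by all 3 aNE-derived lists was PCDHGB1, and aNE_T also gained PCDHGB2 and aNE_M PCDHGA2. The pNE_H list gained PCDHB5, PCDHB11 and PCDHB15, and pNE_T and pNE_M gained no promoter. Promoters were also lost. Of those open in aNE, none was lost in aNE_T, 2 in aNE_M and 2 in aNE_H. Of those open in pNE, 6 were lost in pNE_T, 5 in pNE_M and 2 in pNE_H. The matching shares of all promoters gained or lost at these steps were not computed.

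**Figure D4:**
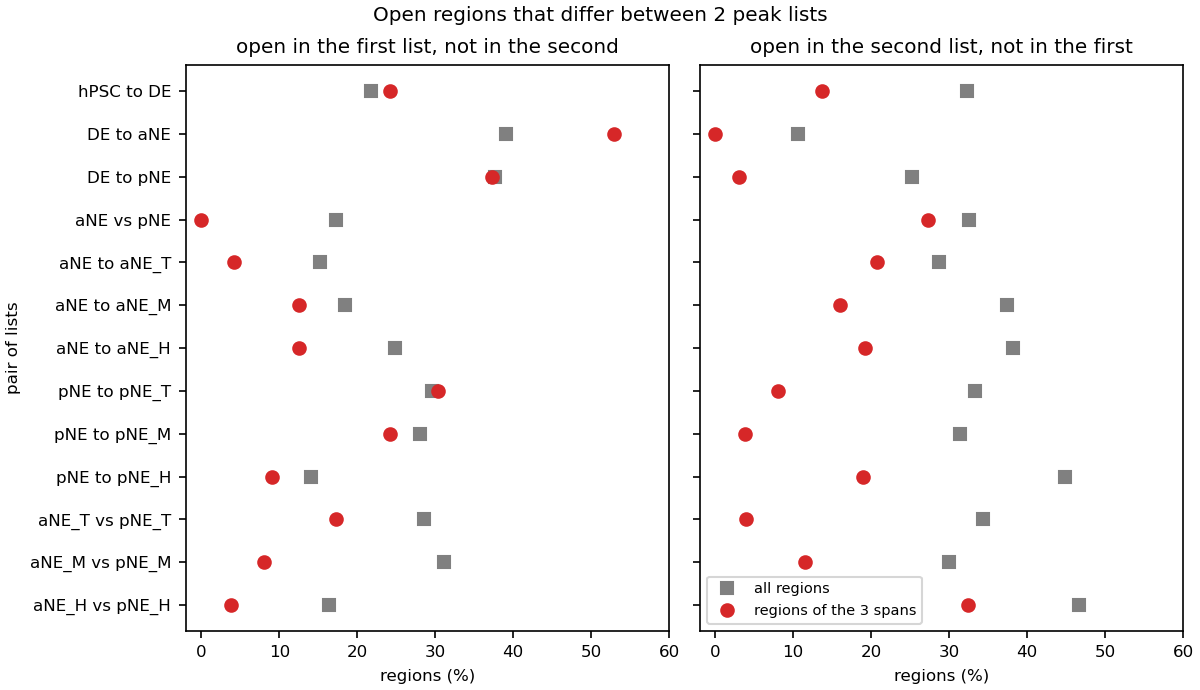
Share of open regions (x axis, %) that differ between 2 peak lists (rows), for the regions of the 3 protocadherin spans (red circles) and for all regions (grey squares); left, regions of the first list absent from the second, and right, regions of the second list absent from the first. The largest loss in the spans is from DE to aNE (52.9%), and the shares gained lie below the grey squares in all 13 pairs.

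Cells of different origin in the same day 4 medium were compared next. In T medium 5 of 29 regions of aNE_T were absent from pNE_T (17.2%, against 28.6%) and 1 of 25 the other way (4.00%, against 34.3%). In M medium 2 of 25 regions of aNE_M were absent from pNE_M (8.0%, against 31.2%) and 3 of 26 the other way (11.5%, against 30%). In H medium 1 of 26 regions of aNE_H was absent from pNE_H (3.85%, against 16.4%) and 12 of 37 the other way (32.4%, against 46.7%). Lists of different origin thus differed less in the spans than over all regions in each medium. No member's promoter was open in all 3 lists of one origin and in none of the other, a pattern of 0.398% of all promoters.

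Of the 68 regions, 1 separated the origins on day 4 (1.47%, against 2.96% of all regions). It lies inside PCDHACT, the shared alpha constant part, at chr5:141009451-141009787, and held a peak of 229 bp in pNE_T, 163 bp in pNE_M and 337 bp in pNE_H. No other list, pNE included, had a peak there. It is nearest to the downstream end of the PCDHA span and lies over no promoter.

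Open regions were then described apart from promoters. Of the 68 regions 33 lay over a member's promoter and 35 did not. All 10 lists were open at 20 regions (29.4%, against 16.5% of all regions), of which 14 lay over promoters and 6 did not. A single list was open at 18 regions (26.5%, against 33.5%). Regions confined to hPSC, DE or both numbered 24 (35.3%, against 12.9%), some of which are among those open in a single list. Taken whole, the spans thus held larger shares than the genome of regions open throughout and of regions restricted to the early populations. Regions open throughout were 14 of the 33 over promoters and 6 of the 35 elsewhere. Of all protein-coding promoters 73.7% were open in all lists. The part of the density of promoters in the larger share of regions open throughout was not tested.

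The 6 regions open in all lists away from promoters lay in the downstream part of the alpha and gamma arrays, past the last variable promoter. The 3 of PCDHA overlap PCDHACT, at chr5:140985558-140987136, chr5:141001408-141002666 and chr5:141003873-141004622. The first was 1579 bp wide as a merged region and had between 987 bp (pNE_T) and 1514 bp (pNE) in single lists. The 3 of PCDHG were at chr5:141494342-141496621, chr5:141508489-141509408 and chr5:141512427-141512809. The first of these was the widest region of all 3 spans at 2280 bp, with between 989 bp (pNE_T) and 1794 bp (pNE_H) covered in single lists. No such region was found in PCDHB, whose widest regions lay over PCDHB1 (1316 bp), PCDHB2 (1194 bp) and PCDHB13 (559 bp, with the region over PCDHB14 of the same width). The other widest regions lay over PCDHAC2 (1723 bp), PCDHAC1 (1687 bp), PCDHGC4 (1589 bp) and PCDHGC3 (1280 bp).

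**Figure D5:**
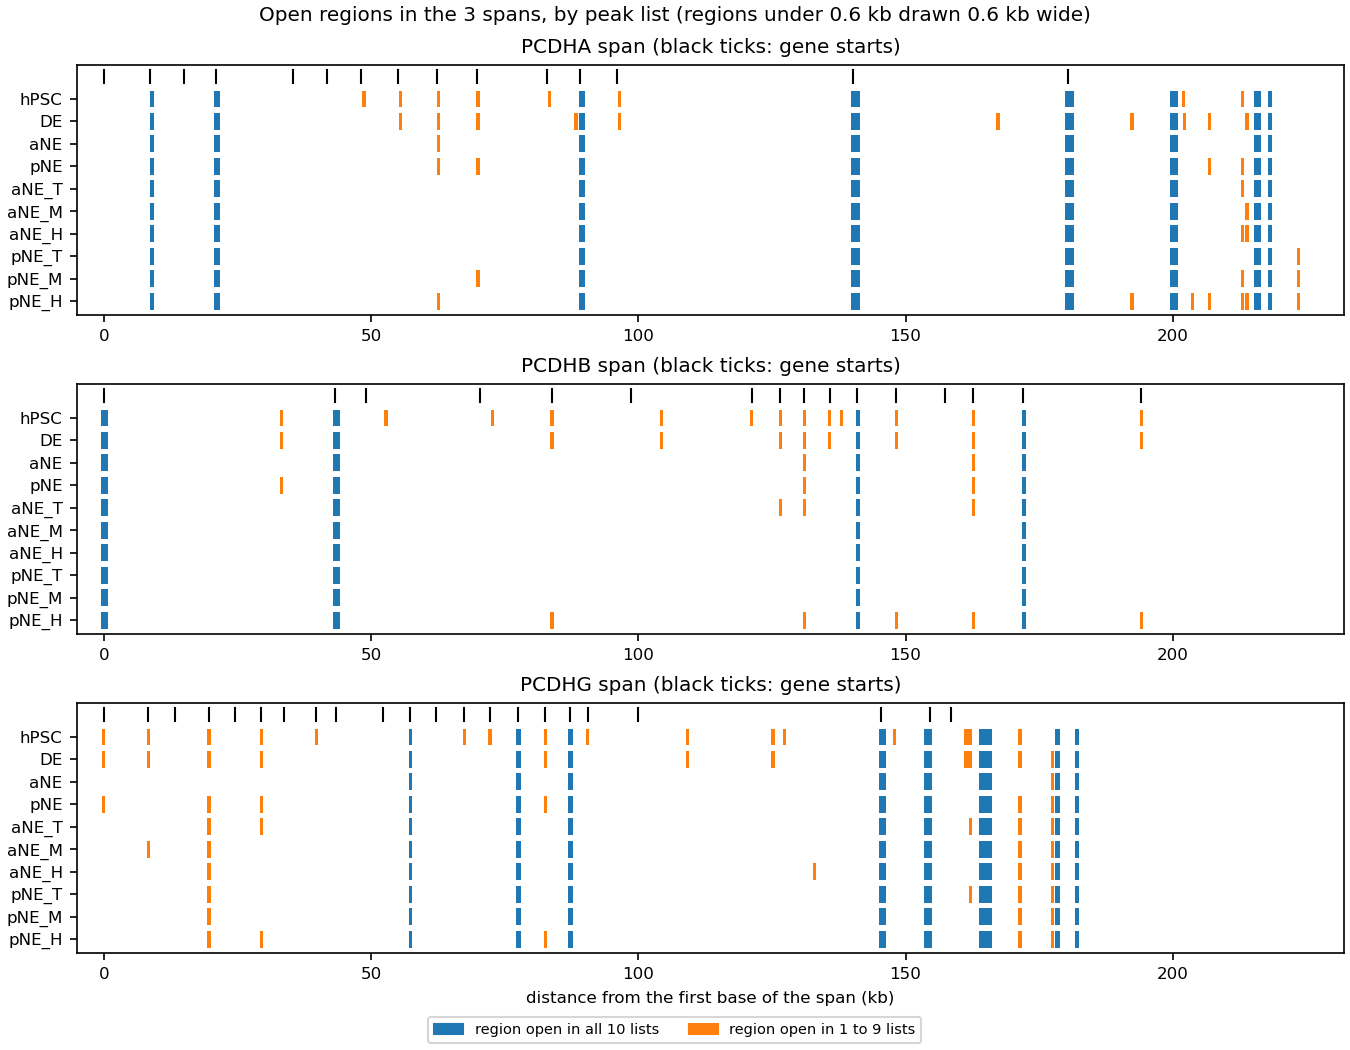
Open regions of each span by peak list (rows), against the distance from the first base of the span (x axis, kb); blue regions are open in all 10 lists, orange ones in 1 to 9, black ticks are gene starts, and regions under 0.6 kb are drawn 0.6 kb wide. Orange regions crowd the hPSC and DE rows, and the blue regions past the last gene starts of PCDHA and PCDHG are those away from promoters.

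Genes that act with the clusters were examined by the same promoter measure. Promoters of CTCF and cohesin genes with a window were open in all 10 lists in 10 of 10 cases, those of DNA methylation and silencing genes in 9 of 9, and those of intracellular partners of protocadherins, such as FYN and the WAVE complex genes, in 7 of 7. Non-clustered protocadherins, which are single genes with promoters of their own, were open in all lists in 7 of 10 cases. PCDH17 was open in 9 lists, PCDH12 in 5 and PCDH1 in none. Over all protein-coding genes with a window the share open in all lists was 73.7%. The non-clustered genes (7 of 10) were near it, and the clustered genes (14 of 53, or 14 of the 47 with a window) were below it.

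Markers of the labelled populations were checked at their promoters. NANOG, a pluripotency gene, was open in hPSC, DE, aNE, pNE and aNE_T, and DPPA4, another, was open in all lists. All 5 neural ectoderm markers were open in all lists, hPSC included, so promoter peaks of these genes do not tell the populations apart. OTX2, an anterior gene, had no promoter peak in pNE_T and pNE_H, but the anterior genes HESX1, LHX2 and RAX were open in all lists. HOXB1, a posterior gene, had none in the 3 aNE-derived lists, CYP26A1 had none in aNE_H, and GBX2 was open in all lists. The mesendoderm and neuron markers with a window were open in all lists, and their part in the results was not tested.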

How the data were processed

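The 10 files hold peak start and end positions that the authors deposited as 3 columns, with no header, score or p-value, 1 list for each population of 3 replicates. The submitters' processing notes name the build hg38 and the tools FastQC, Bowtie2, MACS2, bedtools, featureCounts, edgeR and deepTools. The peak threshold and the way replicates were combined are not given in the sources used here. Positions were read as BED and are printed counted from 1. Peaks on other sequences were left out.

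Peaks were merged across lists wherever they touched by 1 bp or more, and any peak sharing 1 bp or more with a region or promoter made it open in that list. Gene positions and promoter windows came from RefSeq (GRCh38.p14). Windows were matched by gene identifier, 47 of 53 members having one. Python 3.11.15, numpy 2.4.6, pandas 2.3.3 and matplotlib 3.10.9 were used, and the interval code, tested on 6000 simulated intervals against a base by base count, gave 0 errors.

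Every member was accounted for. Full values were given for C-type genes, the first and last gene of each cluster, members open in all lists or 1 list, and members that differed between aNE and pNE. Named regions were the 3 widest of each span, those separating the origins on day 4 and, chosen after their values were seen, those open in all lists away from promoters. The members and lists were chosen with earlier results of these data known. In all 15 strings were searched in the windows on both strands, CTCF-like and TATA strings among them. The commonest strings of 8 bases in the members' windows were also counted, and the 3 longer motifs were then read from those windows.

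Alternatives were the widest 167792 peaks of each list, the wider 50% of each list, windows of 500 bp at peak midpoints, a region open only where peaks cover 50% of it, spans with 10 kb added at each side, promoters of 1000 bases either side of the start, and a peak covering at least 50% of the promoter.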

Additional observations from a re-analysis of the deposited data

Results flagged for a closer look

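The telencephalon, midbrain and hindbrain media were compared within each origin. In the full lists the clusters moved in opposite directions in aNE-derived and pNE-derived cells. In lists of equal length this held only for covered bases in H against T medium. With 1 list per population the difference was not tested. In H against T medium, open protocadherin promoters changed by -3 in aNE-derived lists (18 to 15) and by 7 in pNE-derived lists (15 to 22), a difference of 10. Covered bases changed by -2448 bp and 4248 bp, a difference of 6696 bp, and peaks by -3 and 13, a difference of 16. All open protein-coding promoters moved the same way, from 12338 to 12287 in aNE-derived and from 12256 to 12608 in pNE-derived lists. So did the bases covered on the main chromosomes, from 87.2 to 84.0 Mb and from 89.4 to 129.2 Mb. In M against T medium, open promoters changed by -2 and 1, a difference of 3. Covered bases changed by -1489 bp and 73 bp, a difference of 1562 bp, and peaks by -5 and 1, a difference of 6. The pNE-derived changes in M against T medium were thus small. All open protein-coding promoters here went from 12338 to 12360 in aNE-derived and from 12256 to 12220 in pNE-derived lists.

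The promoters behind the higher hindbrain count in pNE-derived cells were PCDHB5, PCDHB11, PCDHB13, PCDHB15, PCDHB16, PCDHGB2 and PCDHGA10, each with a peak in pNE_H and none in pNE_T. Of these 7, 5 are beta genes, which are 16 of the 53 members. Of all protein-coding promoters 77.4% were open in pNE_T and 79.6% in pNE_H. The share of all promoters open in pNE_H and not in pNE_T was not computed, so the 7 have no matching background. The pNE_H list was also the longest, with 313095 peaks against 215149 in pNE_T, while aNE_H and aNE_T had 203961 and 197832. In lists of the widest 167792 peaks the promoter changes in H against T medium were -4 and -1 and the peak changes -4 and 0. Covered bases there changed by -2576 bp and 2185 bp, so only the covered bases kept opposite directions. In M against T medium all 3 measures were then lower in both origins.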

How the results depend on the processing

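No value has a replicate error, since each population has 1 list; replicates could not be left out in turn. No paired analysis was possible because the 3 replicates of a population appear only as 1 list, so the replicate numbers have no values of their own. Read depth is unknown, so a promoter without a peak was not detected as open rather than shown to be closed. A count within 1.5 times the reported one was read as unmoved, and no value given in this part changed sign. The day 4 medium changes did change sign in lists of equal length: in pNE-derived cells, H against T went from 7 to -1 promoters, and M against T from 1 to -2 promoters, from 73 to -294 bp and from 1 to -2 peaks.

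With the widest 167792 peaks of each list, pNE_H had 25 peaks in the spans and 14 open promoters, and 10 more promoters were open in hPSC than in aNE. Regions of DE absent from aNE numbered 15 and from pNE 12, regions of pNE absent from DE 0, and regions of aNE absent from pNE 3. Of the 14 promoters open in all lists 11 remained so, PCDHB10, PCDHB14 and PCDHGB4 being lost. With the wider 50% of each list, peaks in the spans numbered 31 in hPSC, 30 in DE, 19 in pNE_M and 24 in pNE_H, and open promoters 20 in hPSC and 13 in pNE_H. Promoters in excess in hPSC were then 8 over aNE and 5 over pNE. Regions of hPSC absent from DE numbered 8, of DE absent from aNE 11, of DE absent from pNE 8, of aNE absent from pNE 1 and of pNE absent from aNE 5.

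With windows of 500 bp at peak midpoints 9 promoters were open in all lists, and 1 region of aNE was absent from pNE. Where peaks had to cover 50% of a region, 13 regions of DE were absent from hPSC and 1 region of aNE from pNE. Where a peak had to cover 50% of the promoter, 19 promoters were open in hPSC, 10 in aNE and 13 in pNE_H, with 9 open in all lists and 32 in none. The excess of hPSC was then 9 over aNE and 5 over pNE. The cause of these shifts was not tested.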

Other observations

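Open regions were also read outside the 3 spans. Between PCDHA and PCDHB (39026 bp) 2 regions were found. The one at chr5:141039581-141041422 was open in all 10 lists, with between 1362 bp (aNE_M) and 1756 bp (pNE_H) covered, and overlaps no gene of the table. Between PCDHB and PCDHG (81148 bp) 2 of 3 regions were open in all lists, one of them over TAF7, a general transcription factor gene.

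In the 100 kb after PCDHG 19 regions were found, 7 of them open in all lists and most inside DIAPH1, which encodes an actin-assembling formin. The region at chr5:141521288-141521853, inside DIAPH1, was open in pNE (492 bp) and in all 6 day 4 lists (between 325 bp in pNE_T and 566 bp in aNE_T), and in none of hPSC, DE and aNE. All 19 partly open protocadherin promoters were open in hPSC or DE, but the spans also held regions open in neither. These were at chr5:141009451-141009787 (pNE_T, pNE_M and pNE_H), chr5:140989748-140989928 (pNE_H) and chr5:141463473-141463604 (aNE_H). A second DIAPH1 region, at chr5:141608539-141608976, was open in pNE_T (380 bp), pNE_M (198 bp) and pNE_H (400 bp) only.

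Of 6 protocadherin pseudogenes in or near the spans, PCDHB17P had a peak that overlapped its promoter window by 123 bp in hPSC and 117 bp in DE, and PCDHGB9P by 179 bp in hPSC and 107 bp in DE. The other 4 had none. No other list had a peak within 1 kb of either start.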
